A study of Mus musculus with 3 samples.

Results

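The genes described here are 4 heat shock genes (Hspa1a, Hspa1b, Hspa8 and Dnajb1) and 6 immediate early genes (Fos, Jun, Junb, Egr1, Atf3 and Nr4a1), 10 of the 53465 genes listed in the count tables. They were taken by symbol, and each symbol belonged to 1 identifier. Whole ovaries came from wild-type C57BL/6 female mice of 3 ages, before birth (embryonic day 16.5) and after it (postnatal day 7, and postnatal day 14), and each age is 1 single-cell library. The title of the embryonic library names a different embryonic day from its age label, and the age label is used here. Per the series' design text, the tissue was cut up, digested with collagenase and DNase at 37 degrees C for 30 minutes, and passed through a needle and a 40 micrometre filter. Single cells were then captured in droplets with a 3′ Chromium kit, and all 3 libraries were sequenced together. The number of animals behind each library is not given in the sources used here. With 1 library per age no difference between ages can be set against the spread between animals, so no test was made, and the 95% intervals below cover counting error only.

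Heat shock genes encode chaperones, proteins that help other proteins fold. Their inducible members are switched on within minutes of protein damage by heat shock factor, which binds repeated short sequence units in their promoters. Immediate early genes respond to growth factors, cell contact, wounding and other signals before any new protein is made, mostly through factors already present in the cell, and many encode transcription factors. In the ovary several of them are known to respond to gonadotropins and to ovulation. Enzymatic dissociation of a tissue at body temperature is also known to switch on both groups, so that in single-cell data their levels combine the state in the animal and the response to preparation. These 3 libraries hold no undissociated sample, and the 2 sources cannot be told apart.

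Cells were assigned to classes one by one from marker genes that include none of the 10 genes, and a class is called granulosa-like, stroma-like and so on because it rests on those markers alone. The tables held 459, 510 and 585 cell barcodes in order of age, none shared between libraries, and 1548 of the 1554 were kept. Totals were 8994085, 8743797 and 9065595 UMIs, and the median cell held 15090.5, 12224 and 11435 UMIs. A class was compared between 2 ages if both libraries held at least 10 of its cells, which gave 7 classes for postnatal day 7 against embryonic day 16.5 and 4 for each comparison with postnatal day 14. Granulosa-like cells numbered 54, 88 and 85 at the 3 ages, surface epithelium-like cells 11, 13 and 12, stroma-like cells 107, 332 and 351, and endothelium-like cells 19, 21 and 27. Germ cell-like cells numbered 69, 12 and 3, immune-like cells 10, 14 and 9, and erythroid-like cells 158, 15 and 9. Theca-like cells (46) and smooth muscle or pericyte-like cells (18) reached 10 cells at postnatal day 14 and not before. The marker classes are not the same cells at each age. In a joint clustering, 100 of the 107 embryonic stroma-like cells fell in a cluster that held 1 and 2 cells of the later libraries, and the embryonic and postnatal granulosa-like cells fell in different clusters. The 11 embryonic surface epithelium-like cells fell in no cluster of that name. All 11 fell in the cluster named granulosa that also held the 54 embryonic granulosa-like cells. The 12 germ cell-like cells of postnatal day 7 were large, with a median of 81812.5 UMIs against 14296 in the embryo. All 12 fell in a cluster without embryonic cells, while 47 and 20 of the 69 embryonic ones fell in clusters without later cells. The genes most specific to the embryonic ones began with Smc1b, Sycp1 and Stra8, and those at postnatal day 7 with Dppa3, Ooep and Zp3.

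UMIs of a gene were summed over the cells of a class and divided by the class total, giving CPM, the gene's UMIs per 1000000 UMIs of the class. A gene was called higher or lower in a class when the 2 ages were at least 2-fold apart in CPM + 10 and the exact 95% interval of the CPM ratio left out 1. Between embryonic day 16.5 and postnatal day 7, 25 of the 66 pairs of gene and class were called higher and 2 lower, while over all genes 6.68% of 67582 pairs were called higher and 4.71% lower by the same rule. Between postnatal day 7 and postnatal day 14, 1 of 40 pairs was called higher and 0 lower, against 1.95% and 1.35% over all genes. Between embryonic day 16.5 and postnatal day 14, 16 of 40 pairs were called higher and 2 lower, against 4.85% and 4.58%. The 2 comparisons with the embryo share that library, and the 2 with postnatal day 7 share that one. The calls were unequally spread. Hspa1a was called higher at postnatal day 7 in all 7 classes compared, whereas most calls of the immediate early genes fell in germ cell-like, endothelium-like and erythroid-like cells. A pair also needed 10 UMIs over both ages together. Hspa1a outside stroma-like cells, and Hspa1b in all classes compared, held only 0 to 3 embryonic UMIs per class. Their pairs passed through postnatal counts, so that the filter itself favoured a call of higher at both later ages.

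**Figure D1:**
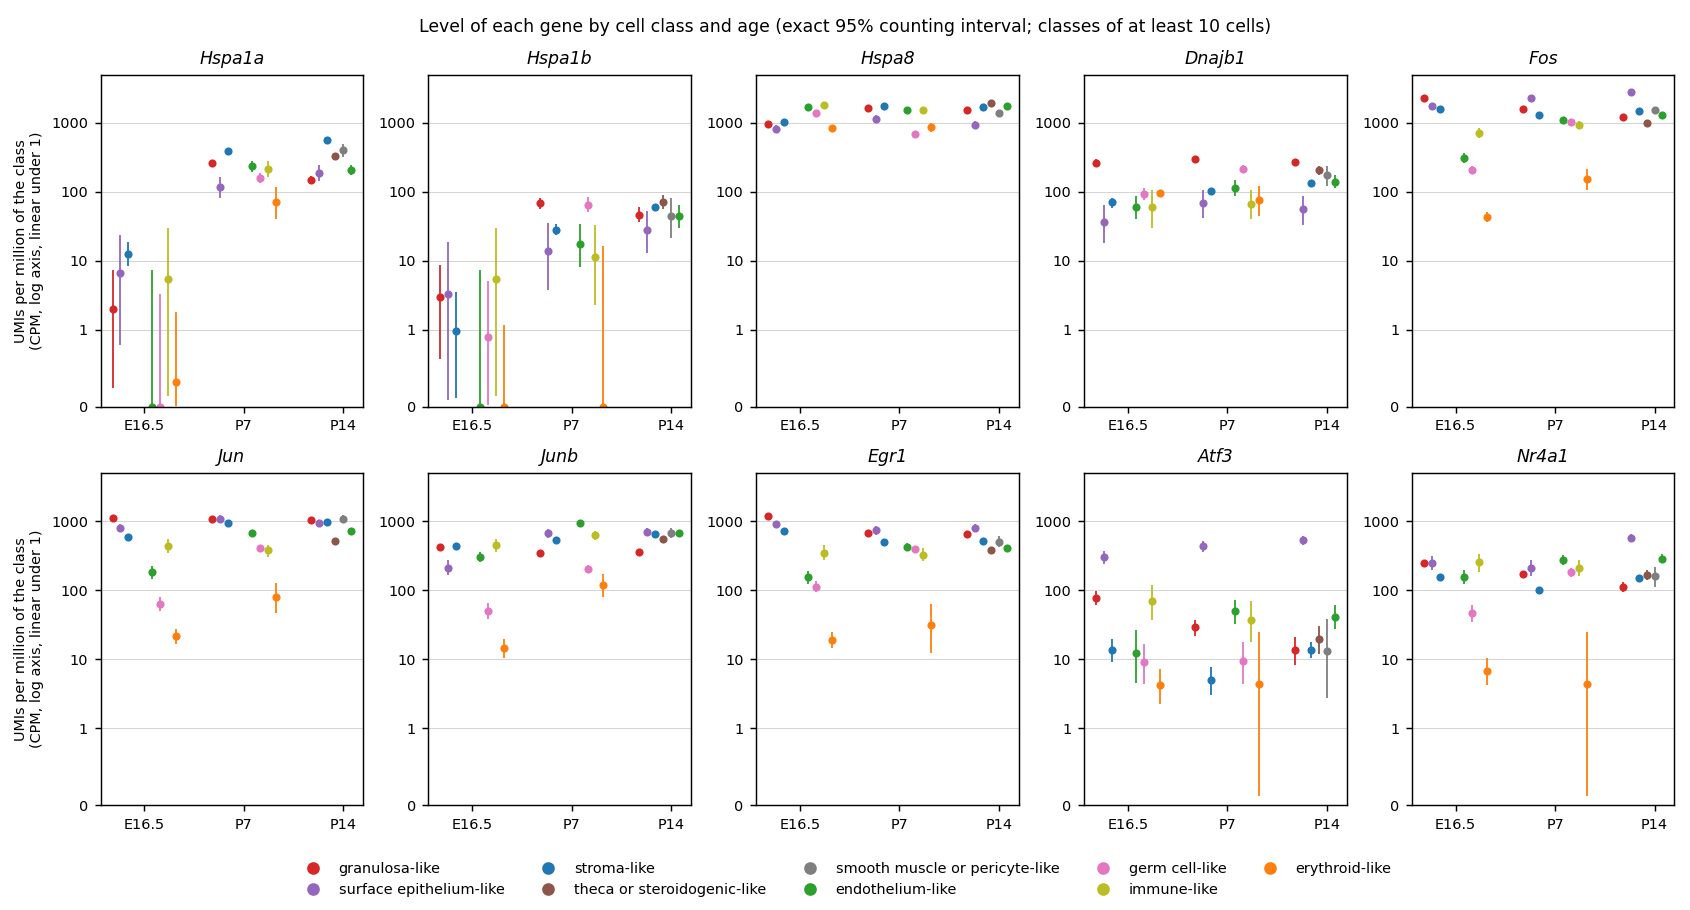
Level of each of the 10 genes in CPM of the class (vertical axis, logarithmic above 1 and linear below) at the 3 ages (horizontal axis), with points for cell classes of at least 10 cells and bars for exact 95% counting intervals. Hspa1a and Hspa1b were at 12.7 CPM or less in every class shown at E16.5 and higher at P7, apart from Hspa1b at 0 in erythroid-like cells, while Fos, Jun and Egr1 were already high in granulosa-like and stroma-like cells at E16.5.

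Hspa1a and Hspa1b encode the inducible HSP70, the chaperone that rises most in a classic heat shock response. The 2 genes lie next to each other on chromosome 17 (GRCm38), Hspa1a at chr17:34969190-34972156 and Hspa1b at chr17:34956436-34959238, both on the minus strand. Hspa1a overlaps Gm20481 on the other strand, of which the libraries held 0, 2 and 2 UMIs. Their promoters are shown because the 2 genes had alike levels over the sums of class and library. The windows are the 250 bases before each annotated start, from RefSeq's GRCm38.p6 annotation, Hspa1a at chr17:34972157-34972406 and Hspa1b at chr17:34959239-34959488 (minus strand), and they differ in 3 of the 250 bases. Capitals mark a pair of heat shock units of opposite orientation (GAANNTTC), at -104 to -97 from the start in both.
Hspa1a: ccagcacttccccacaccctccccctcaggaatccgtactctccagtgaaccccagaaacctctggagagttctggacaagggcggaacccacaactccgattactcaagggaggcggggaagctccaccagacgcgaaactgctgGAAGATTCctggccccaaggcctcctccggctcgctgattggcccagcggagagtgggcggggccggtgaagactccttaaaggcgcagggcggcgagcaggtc
Hspa1b: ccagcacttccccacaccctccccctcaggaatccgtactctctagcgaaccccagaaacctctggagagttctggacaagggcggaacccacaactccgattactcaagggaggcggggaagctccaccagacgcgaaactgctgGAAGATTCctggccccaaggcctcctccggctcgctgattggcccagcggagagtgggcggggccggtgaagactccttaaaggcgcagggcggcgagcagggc
Of 32851 promoter windows of the same length, 6.69% held GAANNTTC, so that such a match is no proof of a working site. The 2 transcripts share 47.5% of Hspa1a's stretches of 98 bases, the read length, but 0 of the 403 stretches in its last 500 bases, where a 3′ library reads.

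Hspa1a was at a low count in the embryonic library, and at both later ages it was found in every class of at least 10 cells. In smaller classes, the 1 theca-like cell of postnatal day 7 held 0 UMIs of it, and the 9 erythroid-like cells of postnatal day 14 held 2 (9.88 CPM). Hspa1a and Hspa1b together were at 49.6 CPM in the 4 embryonic smooth muscle or pericyte-like cells, from 2 UMIs. In the 6 such cells of postnatal day 7 they were at 536.5 CPM. The same sums in stroma-like cells were 13.7 and 419 CPM. At embryonic day 16.5 the library held 38 UMIs of Hspa1a, in 28 of 456 cells, and 26 of those UMIs came from stroma-like cells. At postnatal day 7 it held 2623 UMIs in 339 of 509 cells, and at postnatal day 14 it held 3563 in 416 of 583 cells. Stroma-like cells went from 12.7 CPM in the embryo to 391 and 558 CPM at the 2 later ages. Among classes of at least 10 cells they were highest at all 3, though in the embryo with an interval that overlapped the next class. Granulosa-like cells went from 2.02 to 262 and 148 CPM. Surface epithelium-like cells went from 6.65 to 117 and 189.6 CPM. In endothelium-like cells 0 UMIs were found in the embryo, and the level was 233 and 208 CPM afterwards. At postnatal day 14 theca-like cells held 329 CPM and smooth muscle or pericyte-like cells 398 CPM. Postnatal values thus lay above embryonic ones in each of the 4 classes with 3 ages, without overlap of their counting intervals.

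In stroma-like cells the level at postnatal day 7 was 30.7 times (20.9 to 47.1) that of the embryo. In granulosa-like cells it was 129.7 (35.7 to 1074), from 514 UMIs against 2, and in surface epithelium-like cells 17.6 (4.52 to 151.5), from 34 against 2. In immune-like cells 58 UMIs stood against 1, a ratio of 40.2 (6.93 to 1614). The stroma markers in these cells moved with it, from 168 CPM with 7 of 12 detected and Pdgfra, Tcf21, Lum, Dpt and Ogn at 0, to 3305 CPM with 12 of 12 detected, and their part in the result was not tested. Endothelium-like cells held 118 UMIs and germ cell-like cells 152 against 0 in the embryo, and set against the 3 UMIs that a class count of 0 allows these levels were at least 38.3-fold and at least 59.1-fold higher. Erythroid-like cells held 16 UMIs against 1, and all 16 came from 3 of the 15 cells. Outside stroma-like cells, with 26 embryonic UMIs, each class passed the minimum of 10 UMIs through its postnatal count. The filter itself thus favoured a call of higher in those classes. Without the 3 highest cells of each class and library the call remained in 6 of the 7 classes and was lost in erythroid-like cells, whose log2 ratio of CPM + 10 went from 2.98 to 0.0. The same call was made over all genes in 1.85% of those tested in stroma-like cells, 4.04% in granulosa-like, 5.73% in surface epithelium-like, 4.9% in endothelium-like, 18.3% in germ cell-like, 8.49% in immune-like and 3.77% in erythroid-like cells. Among clusters with at least 10 cells, Hspa1a ranged from 0.0 to 13.2 CPM over the 9 of the embryo, from 156.5 to 527 CPM over the 10 of postnatal day 7, and from 178 to 689 CPM over the 9 of postnatal day 14. The ranges before and after birth did not overlap among these clusters. Those of the embryo included clusters named erythroid, while no cluster so named held 10 cells of a later library. The 9 erythroid-like cells of postnatal day 14 held Hspa1a and Hspa1b together at 9.88 CPM, within the embryonic range.

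Hspa1b showed the same direction at a lower count. The 3 libraries held 9, 342 and 512 UMIs of it. Granulosa-like cells went from 3.03 CPM at embryonic day 16.5 to 67.8 at postnatal day 7 and 46.8 at postnatal day 14, stroma-like cells from 0.98 to 28.2 and 59.7 CPM, and endothelium-like cells from 0 UMIs to 17.8 and 44.5 CPM. The 10 UMIs needed over both ages together were reached in 3 classes, granulosa-like, stroma-like and germ cell-like, and all 3 were called higher at postnatal day 7. They passed through their postnatal counts (133, 119 and 62 UMIs against 3, 2 and 1), so that the filter itself favoured a call of higher. In granulosa-like cells the ratio was 22.4 (7.49 to 109.9), in stroma-like cells 28.8 (7.81 to 240.7) and in germ cell-like cells 72.3 (12.5 to 2901), each over 1 to 3 embryonic UMIs. Erythroid-like cells held 0 UMIs of Hspa1b at both of these ages. Among classes of at least 10 cells the order was not that of Hspa1a at postnatal day 7. There granulosa-like (67.8 CPM) and germ cell-like cells (65.5 CPM) led with overlapping intervals, and stroma-like cells came after them.

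To compare shares of cells at equal depth, each cell was thinned to 5000 UMIs, and 0 cells were shallower. A UMI of Hspa1a was then found in 0% of granulosa-like cells at embryonic day 16.5, in 54.5% at postnatal day 7 and in 42.4% at postnatal day 14. In stroma-like cells the shares were 5.61%, 54.8% and 64.1%, and in endothelium-like cells 0%, 38.1% and 55.6%. Before thinning the stroma-like shares were 15.9%, 64.8% and 71.8%. Erythroid-like cells, which make mainly globin, gave 0.633% in the embryo and 13.3% at postnatal day 7. Their median there was 11322 UMIs per cell against 10070.5 in stroma-like cells, with globin at 476469 CPM of the erythroid-like total. The shares of all other classes at postnatal day 7 lay above 13.3%, from 23.1% in surface epithelium-like cells upwards. These 2 shares rest on 15 and 13 cells, and the difference was not tested. The 3 highest cells held 105 of the 1646 UMIs in stroma-like cells at postnatal day 7, but 70 of 118 in endothelium-like cells, whose level without them was 116 CPM, and 24 of 34 in surface epithelium-like cells. After thinning, 14.5% of stroma-like cells held 5 UMIs or more at postnatal day 7 and 27.1% at postnatal day 14, while 45.2% and 35.9% held 0.

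**Figure D2:**
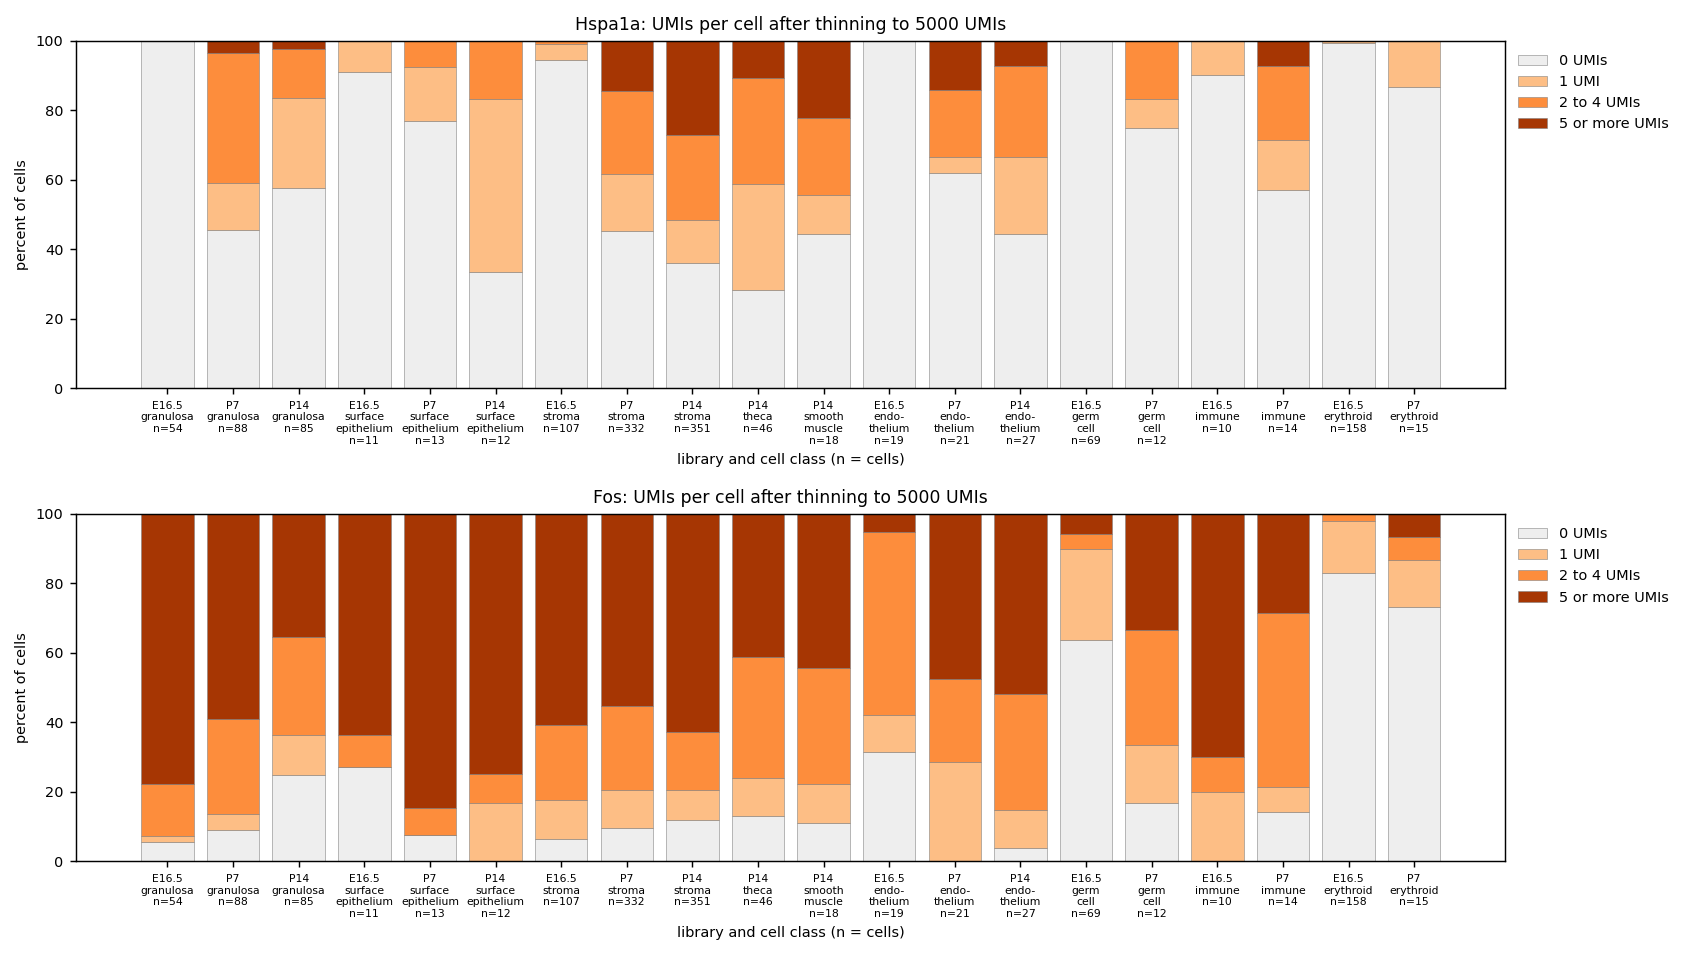
Share of cells (vertical axis, percent) with 0, 1, 2 to 4 and 5 or more UMIs of Hspa1a (top) and Fos (bottom) after thinning each cell to 5000 UMIs, for each class and library of at least 10 cells (horizontal axis, n = cells). For Hspa1a the embryonic bars are 90% or more empty in every class, while for Fos the granulosa-like and stroma-like bars are mostly filled at all 3 ages.

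Hspa8 encodes the constitutive HSC70, which most cells make without stress, and Dnajb1 an HSP40 co-chaperone that hands substrates to HSP70. Hspa8 was called higher in 0 of 7 classes at postnatal day 7. In stroma-like cells it went from 1038 CPM to 1764 and 1721 CPM over the 3 ages, a ratio of 1.70 (1.62 to 1.79) for the first step, and in granulosa-like cells from 968 to 1616 and 1547 CPM. Endothelium-like cells held 1690, 1510 and 1732 CPM. It was called lower in germ cell-like cells, from 1394 to 681 CPM, where 10.6% of all genes tested were called lower. That call sits at the threshold: with a looser gate its log2 ratio went from -1.02 to -0.99 and with an average over cells to -0.91. Dnajb1 was highest in granulosa-like cells at every age, at 263, 302 and 268 CPM, with intervals that did not overlap those of the next class. The next were erythroid-like cells (95.3 CPM) in the embryo, germ cell-like cells (213 CPM) at postnatal day 7 and theca-like cells (205 CPM) at postnatal day 14. Between the embryo and postnatal day 7 it was called higher in germ cell-like cells alone, from 94.2 to 213 CPM, and this call too was lost under 2 other scalings of the totals, at log2 ratios of 0.99 and 0.96 in place of 1.10. Between the embryo and postnatal day 14 it was called higher in endothelium-like cells, from 60.9 to 141 CPM, a log2 ratio of 1.09 that became 0.99 with TMM library sizes, below the threshold. The 2 genes thus did not share the shift of Hspa1a in size: over the 7 classes the log2 ratio of Hspa1a ran from 2.93 to 4.60, and those of Hspa8 and Dnajb1 from -1.02 to 1.10.

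Fos, Jun and Junb encode subunits of AP-1, the transcription factor that many signals converge on. Fos is at chr12:85473890-85477273 on the plus strand, Jun at chr4:95049034-95052222 and Junb at chr8:84974484-84978718, both on the minus strand. The promoters of Fos and Jun are shown because these 2 genes had the most alike levels with each other and with Egr1 over classes. Different letter matches are marked in the 2 promoters. The windows are chr12:85473640-85473889 for Fos and chr4:95052223-95052472 for Jun, from the same annotation. Capitals mark TGACG, the core of a cyclic AMP response element, in Fos (from -129 and from -66) and TGANNTCA, a cyclic AMP or AP-1 type element, in Jun (-45 to -38).
Fos: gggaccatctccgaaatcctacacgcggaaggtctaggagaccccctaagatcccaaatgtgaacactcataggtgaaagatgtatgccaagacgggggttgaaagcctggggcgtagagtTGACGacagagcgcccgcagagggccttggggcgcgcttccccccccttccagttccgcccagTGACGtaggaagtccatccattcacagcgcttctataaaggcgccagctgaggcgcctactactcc
Jun: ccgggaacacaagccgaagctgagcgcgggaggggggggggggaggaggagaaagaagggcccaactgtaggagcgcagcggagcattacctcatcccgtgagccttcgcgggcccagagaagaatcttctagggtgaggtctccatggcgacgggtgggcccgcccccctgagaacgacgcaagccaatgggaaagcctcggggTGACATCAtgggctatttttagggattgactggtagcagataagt
TGACG was found in 17.8% of the 32851 windows and TGANNTCA in 11.9%, with both strands searched. A window was found for 8 of the 10 genes. Besides the 2 HSP70 genes, Jun held GAANNTTC, at -128 to -121. TGACG was also found in the windows of Dnajb1, Junb and Atf3 (1 each) and Nr4a1 (4). TTCNNGAA and the CArG box, the site of serum response factor, were found in none of the 8 windows and in 7.17% and 1.47% of all windows. CCAAT (33.8% of all windows) was found in Hspa1a, Hspa1b, Dnajb1, Jun and Junb, and TATAAA (12.4%) in Fos. These matches describe letters within this window and say nothing of binding.

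**Figure D3:**
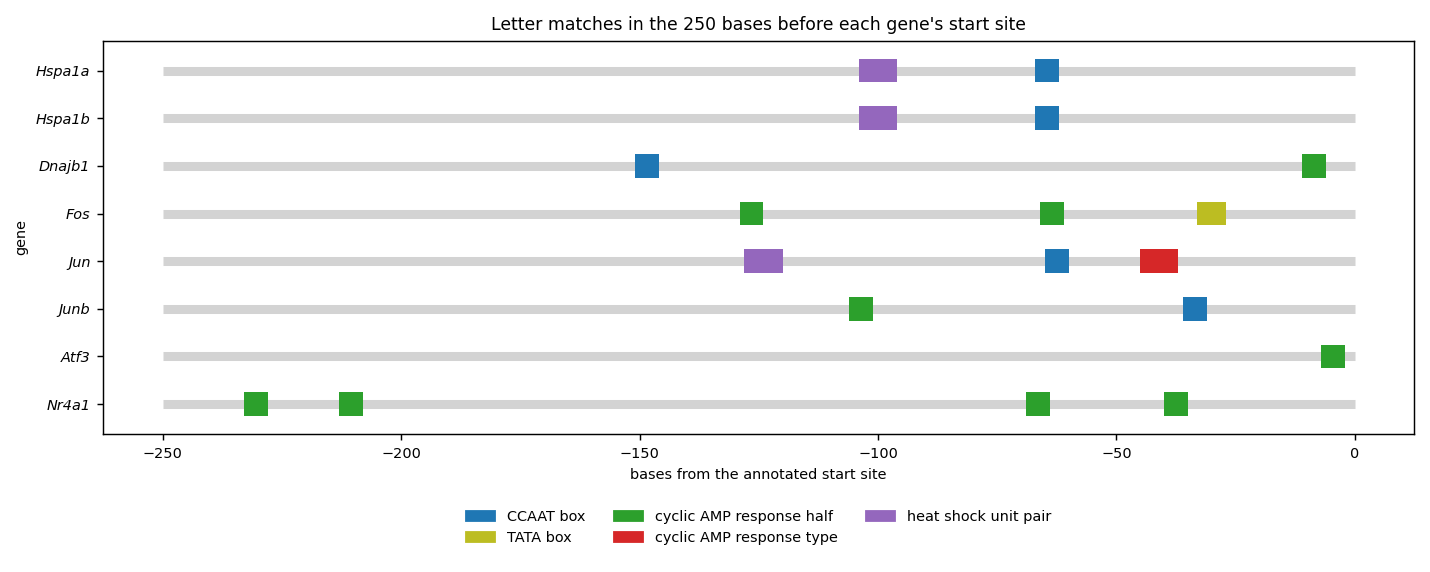
Position of each motif match (coloured boxes) in the 250 bases before the annotated start of the 8 genes with a promoter window (horizontal axis, bases from the start; one line per gene). The heat shock unit pair lies at -104 to -97 in both Hspa1a and Hspa1b and at -128 to -121 in Jun, and Nr4a1 carries 4 of the TGACG matches.

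Fos was high in granulosa-like, surface epithelium-like and stroma-like cells already before birth. In granulosa-like cells it went from 2306 CPM at embryonic day 16.5 to 1567 and 1201 CPM, with a UMI in 96.3%, 97.7% and 84.7% of cells. In stroma-like cells it was 1577, 1287 and 1496 CPM, and in surface epithelium-like cells 1739, 2266 and 2776 CPM. None of these steps reached 2-fold. By contrast endothelium-like cells went from 310 CPM to 1093 and 1284 CPM, a ratio of 3.52 (2.94 to 4.24) for the first step and of 4.14 (3.48 to 4.95) from the embryo to postnatal day 14. Germ cell-like cells went from 209 to 1017 CPM, a ratio of 4.86 (4.21 to 5.64). Immune-like cells held 709 and 926 CPM. Granulosa-like, surface epithelium-like and stroma-like cells were thus the 3 highest classes in the embryo and at postnatal day 7, and endothelium-like and germ cell-like cells were far below them in the embryo and closer afterwards. In the embryo the highest class stood 53.3-fold over the lowest, erythroid-like cells at 43.3 CPM, and at postnatal day 7 the same 7 classes ran from 151 CPM in erythroid-like cells to 2266 CPM. At postnatal day 14 the 6 classes of at least 10 cells, a different set without erythroid-like, germ cell-like and immune-like cells, lay within 2.81-fold.

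Jun was likewise not called in granulosa-like or stroma-like cells and was called higher in endothelium-like and germ cell-like cells. It was 1124, 1082 and 1035 CPM in granulosa-like cells over the 3 ages and 597, 946 and 963 CPM in stroma-like cells, neither past 2-fold. Endothelium-like cells went from 183 CPM to 669.9 and 725 CPM, and germ cell-like cells from 63.4 to 404 CPM. The ratios to the embryo at postnatal day 7 were 3.67 (2.90 to 4.68) and 6.36 (4.92 to 8.33). In the embryonic germ cell-like cells 3 cells held 47 of the 70 UMIs of Jun, and without the 3 highest cells at each age the log2 ratio was 3.48 in place of 2.49. Of 69 embryonic germ cell-like cells 16 held a UMI of Jun, and of 12 at postnatal day 7 it was 11, at unequal depth. After thinning to 5000 UMIs the shares were 14.5% and 83.3%.

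Junb differed from Fos and Jun in which classes led. In the embryo immune-like (449 CPM), stroma-like (431 CPM) and granulosa-like cells (429 CPM) were highest, with overlapping intervals, and at postnatal day 7 endothelium-like cells led with 929 CPM against 669 CPM in surface epithelium-like cells, intervals that did not overlap. It was called higher at postnatal day 7 in 4 of 7 classes: endothelium-like (from 302 CPM, a ratio of 3.07, 2.55 to 3.72), surface epithelium-like (from 213 CPM, 3.15, 2.36 to 4.24), germ cell-like (from 50.7 to 204 CPM) and erythroid-like cells (from 14.5 to 120.1 CPM). In granulosa-like cells it was 429, 352 and 358 CPM. Junb overlaps the Prdx2 gene on the other strand, and whether the counting used strand is not given in the sources used here, so reads of the 2 could be mixed. Prdx2 was at 2542 CPM in embryonic erythroid-like cells and 2380 CPM at postnatal day 7, where Junb was 14.5 and 120.1 CPM. In germ cell-like cells it was at 112 and 359 CPM beside 50.7 and 204 CPM of Junb, and its part in the Junb values was not tested.

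**Figure D4:**
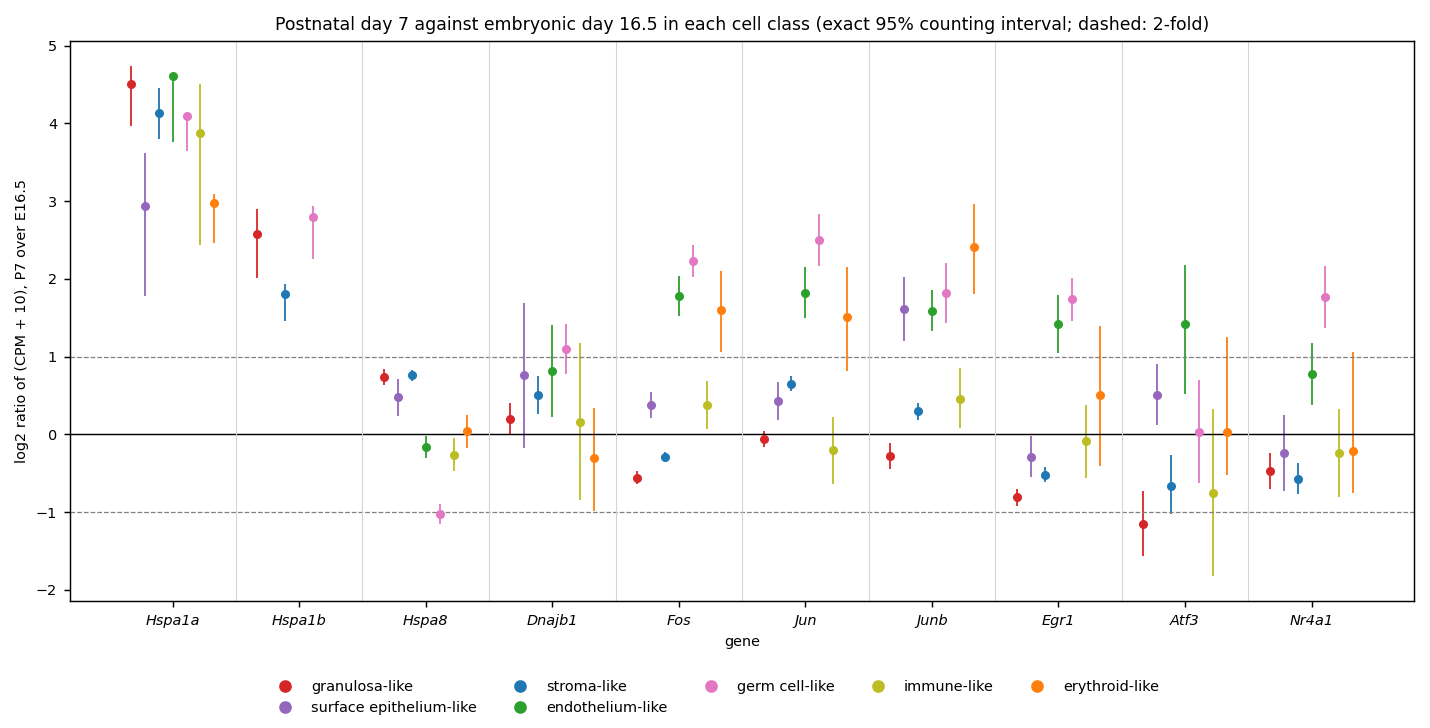
Log2 ratio of (CPM + 10) at P7 over E16.5 (vertical axis) for each gene (horizontal axis) and class, with exact 95% counting intervals and dashed lines at 2-fold. Hspa1a lies above 2-fold in all 7 classes, while for Fos, Jun and Egr1 the germ cell-like and endothelium-like points lie above 2-fold and the granulosa-like and stroma-like points do not.

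Egr1 encodes a zinc finger factor induced by growth factors and gonadotropins, and Nr4a1 an orphan nuclear receptor that is induced with it in many cells. Egr1 in granulosa-like cells was 1206 CPM at embryonic day 16.5, 684 CPM at postnatal day 7 and 644 CPM at postnatal day 14. This was 1.76-fold (1.63 to 1.91) lower at postnatal day 7 than in the embryo, short of the 2-fold threshold. Stroma-like cells held 722, 502 and 519 CPM. Endothelium-like cells went from 154 CPM to 429 and 406 CPM, a ratio of 2.78 (2.13 to 3.66) for the first step, and germ cell-like cells from 113 to 400.4 CPM, a ratio of 3.54 (2.88 to 4.36). Both were called higher, and in no other class was Egr1 called. Nr4a1 was called higher at postnatal day 7 in germ cell-like cells alone, from 47.1 to 184 CPM (3.90, 2.85 to 5.43). In endothelium-like cells it was 156 CPM and then 275 and 288 CPM, and in stroma-like cells 154, 100.4 and 149 CPM. In granulosa-like cells it was 245.5, 174 and 111 CPM and was called lower at postnatal day 14 against the embryo, a 2.21-fold (1.80 to 2.73) difference that fell short of 2-fold on CPM + 10 under 3 of the 8 alternatives, at log2 ratios of -0.97, -0.88 and -0.79 in place of -1.08. Surface epithelium-like cells held 249, 210.4 and 575 CPM of Nr4a1. The rise from postnatal day 7 to postnatal day 14 there was the sole call among 40 pairs for these 2 ages, and 3 of the 12 cells held 146 of its 185 UMIs. Without the 3 highest cells at each age the levels were 138 and 217 CPM, and the call was lost.

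Atf3 encodes a stress-induced factor of the ATF family. Its highest class was the same at all 3 ages. Surface epithelium-like cells held 302.5, 435 and 532 CPM, and the next class held 76.8 CPM (granulosa-like) in the embryo, 49.4 CPM (endothelium-like) at postnatal day 7 and 41.4 CPM (endothelium-like) at postnatal day 14, with no overlap of intervals with the leading class. These levels rest on 11, 13 and 12 cells. In the embryo 7 of 11 held a UMI, then 11 of 13, and at postnatal day 14 8 of 12, where 3 cells held 141 of the 171 UMIs and the level without them was 127 CPM. The 3 highest cells carried 62 of 91 and 73 of 126 UMIs at the 2 earlier ages, and the levels without them were 191 and 322 CPM. Atf3 was among the 10 genes most specific to the embryonic cells of this class, which were chosen by other markers. In granulosa-like cells it went down, from 76.8 CPM to 29.1 and 13.7 CPM, and was called lower at both later ages, 2.64-fold (1.85 to 3.79) and 5.61-fold (3.36 to 9.83). With TMM library sizes the first of these went from a log2 ratio of -1.15 to -0.92 and was no longer called. In these cells 6.03% of all genes tested were called lower at postnatal day 7. In endothelium-like cells it was called higher, from 6 UMIs (12.2 CPM) to 25 (49.4 CPM) and 27 (41.4 CPM), and both calls were lost without the 3 highest cells. In stroma-like cells Atf3 was at 13.7, 4.98 and 13.8 CPM.

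Set out by class, 8 of the 10 genes were called higher at postnatal day 7 in germ cell-like cells, where 18.3% of all genes were, and 6 of 9 in endothelium-like cells, where 4.9% were. Erythroid-like cells had 4 of 9 (3.77% of all genes), surface epithelium-like cells 2 of 9 (5.73%), granulosa-like cells 2 of 10 (4.04%) and stroma-like cells 2 of 10 (1.85%). Of the 4 in erythroid-like cells, Hspa1a, Fos and Jun lost the call with clusters in place of gated classes, at log2 ratios of 0.61, 0.11 and 0.43. All of these also lost it without the 3 highest cells. Fos lost it with a stricter gate too (a lead of 0.1), at 0.04, while Junb kept the call in these settings. Immune-like cells had 1 of 9, near the 8.49% of all genes. None was called lower in endothelium-like, stroma-like, surface epithelium-like, immune-like or erythroid-like cells, where 1.64%, 1.74%, 4.55%, 6.21% and 1.57% of all genes were, and 1 each was in granulosa-like (Atf3) and germ cell-like cells (Hspa8). The median log2 ratio of the members tested was 1.42 in endothelium-like cells against 0.07 over all genes tested there, and 1.79 against 0.11 in germ cell-like cells. In granulosa-like and stroma-like cells the 2 were Hspa1a and Hspa1b. The 6 immediate early genes together made 5389 CPM in embryonic granulosa-like cells and 3888 CPM at postnatal day 7, and 3495 and 3372 CPM in stroma-like cells. In endothelium-like cells they went from 1118 to 3444 CPM, in germ cell-like cells from 493 to 2219 CPM, and in immune-like cells they were 2272 and 2507 CPM. The gap between stroma-like and endothelium-like cells in the embryo was therefore not seen at postnatal day 7. Leaving the erythroid-like cells out, the sum over all cells was 2872 CPM in the embryo and 3365 CPM at postnatal day 7, while with them it was 1918 and 3289 CPM, because 158 of 456 embryonic cells were erythroid-like and held 109.5 CPM.

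At postnatal day 14 against the embryo, 8 of 10 members were called higher and 0 lower in endothelium-like cells, against 6.81% and 1.78% of all genes, with Hspa8 and Nr4a1 the exceptions. Of these 8, Junb was no longer called with a mean over cells (a log2 ratio of 0.95) or without the 3 highest cells (0.87), Atf3 in the same settings (0.86 and 0.74), and Dnajb1 with TMM library sizes. Surface epithelium-like cells had 4 higher (Hspa1a, Hspa1b, Junb and Nr4a1) and 0 lower of 10, against 9.6% and 5.34%. Of these 4, Hspa1b (9 UMIs against 1) and Nr4a1 each lost the call with totals without mitochondrial, ribosomal protein and haemoglobin genes and without the 3 highest cells, Nr4a1 at log2 ratios of 0.97 and 0.61. Stroma-like cells had 2 higher (Hspa1a and Hspa1b) and 0 lower, against 2.01% and 2.91%. Granulosa-like cells had the same 2 genes higher and 2 lower (Atf3 and Nr4a1), against 3.53% and 8.18%. Between the postnatal ages Nr4a1 in surface epithelium-like cells was called higher and no member lower, where 5.36% and 2.7% of all genes in that class were. In granulosa-like, stroma-like and endothelium-like cells no member was called for these 2 ages, where 0.981%, 0.418% and 2.84% of all genes were called higher and 1.51%, 0.729% and 1.02% lower. Hspa1b came nearest, from 28.2 to 59.7 CPM in stroma-like cells and from 17.8 to 44.5 CPM in endothelium-like cells, with log2 ratios of CPM + 10 of 0.87 and 0.97.

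Markers of other classes moved with some of these results. In germ cell-like cells the summed level of the 14 granulosa markers was 169 CPM in the embryo, with 9 of 14 detected, and 1123 CPM at postnatal day 7, with 13 of 14 detected and Fshr at 0. Granulosa-like cells themselves held 3351 and 5347 CPM of these markers. The 12 stroma markers went from 134 to 245 CPM in germ cell-like cells. In endothelium-like cells the granulosa markers were at 266 and 267 CPM, with 7 of 14 detected at each age and Inhba, Amh, Hsd17b1, Lgr5 and Fshr at 0 at both. The stroma markers there were at 292 CPM, with Dpt and Ogn at 0, and at 705 CPM, with 12 of 12 detected, against 6258 and 9467 CPM in stroma-like cells. In erythroid-like cells the stroma markers were at 53.6 CPM in the embryo, with Dpt at 0, and at 645 CPM at postnatal day 7, with 9 of 12 detected and Pdgfra, Nr2f2 and Dpt at 0. Embryonic surface epithelium-like cells held 1549 CPM of the granulosa markers beside 2038 CPM of their own markers. At postnatal day 7 these were 1145 and 5808 CPM. The part of such markers in the results for these classes was not tested. Erythroid-like cells at postnatal day 7 held 34 UMIs of Fos, 28 of them in 3 of 15 cells, and without the 3 highest cells at each age the log2 ratios of Fos and Jun went from 1.60 and 1.51 to -0.07 and -0.23. Globin made up 5725 to 6330 CPM of the embryonic granulosa-like, surface epithelium-like, stroma-like, germ cell-like and immune-like cells, 38091 CPM of the endothelium-like cells, and 422 to 558 CPM of these 6 classes at postnatal day 7. Totals without globin, mitochondrial and ribosomal protein genes gave 24 calls of higher in place of 25.

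The other genes of the 2 groups, 25 heat shock and chaperone genes and 39 immediate early and stress genes, were read in the same way. Among the other heat shock genes 9 of 153 pairs were called higher and 5 lower at postnatal day 7, no more than the 6.68% and 4.71% over all genes. Those with the highest median over classes were Hspb1, a small heat shock protein, Cryab, another of them, and Hspa5, the chaperone of the endoplasmic reticulum, with median log2 ratios of 1.38, 0.55 and 0.46, and the lowest were Hspa4l, Chordc1 and Hspa2 at -0.31, -0.30 and -0.19. Hspb1 was called higher in 4 of 6 classes. Hsp90aa1, Cacybp, Hspa4l and Hspa5 were called lower in germ cell-like cells, Hsp90aa1 going from 2993 to 924 CPM there. Against the embryo, 11 of 96 pairs were called higher and 2 lower at postnatal day 14, with Hspb1, Cryab and Hsph1 highest (1.24, 1.21 and 0.86) and Hsf2, Hspa13 and Hsf1 lowest (-0.20, -0.18 and -0.12). The shares over all genes were 4.85% and 4.58%. Between the 2 postnatal ages 2 of 96 were called higher and 1 lower, near the 1.95% and 1.35% over all genes. Hsph1, Hspa5 and Hspb1 had the highest medians (0.53, 0.42 and 0.40), and Hspd1, Cacybp and Hsp90aa1 the lowest (-0.18, -0.18 and -0.16).

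Among the other immediate early genes 50 of 220 pairs were called higher and 10 lower at postnatal day 7, against 6.68% and 4.71% over all genes. By class, 19 of 32 tested were called higher in germ cell-like cells (18.3% of all genes), with a median log2 ratio of 1.20 against 0.11 over all genes tested there, and 12 of 33 in endothelium-like cells (4.9%), with a median of 0.55 against 0.07. In granulosa-like cells 1 of 36 was higher and 5 were lower (4.04% and 6.03% of all genes; median -0.18 against -0.13), and in stroma-like cells 1 of 36 was higher (1.85%; median -0.16 against -0.02). In surface epithelium-like cells 8 of 31 were higher (5.73% of all genes) and 2 lower, in immune-like cells 5 of 30 (8.49%) and 2, and in erythroid-like cells 4 of 22 (3.77%) and 0. Cebpd, Cyr61 and Gadd45g had the highest medians over classes (1.24, 1.05 and 1.03), and Dusp5, Maff and Ddit3 the lowest (-1.24, -0.52 and -0.26). At postnatal day 14 against the embryo 25 of 136 pairs were called higher and 16 lower, against 4.85% and 4.58% over all genes. Of the lower ones 11, of 35 tested, were in granulosa-like cells, where 8.18% of all genes were lower, and where, among examples chosen after their values were seen, Klf4 went from 482 to 75.6 CPM, Egr2 from 117 to 16.6 CPM and Fosb from 755 to 291 CPM. Over the classes compared at these 2 ages, Cebpd, Ier3 and Klf2 had the highest medians (1.58, 1.02 and 0.95) and Egr2, Dusp6 and Btg1 the lowest (-1.34, -0.74 and -0.68). From postnatal day 7 to postnatal day 14, 5 of 138 pairs were called higher and 7 lower, against 1.95% and 1.35%. Klf4, Nr4a2 and Fosb had the highest medians (0.60, 0.54 and 0.45), and Gadd45b, Socs3 and Klf10 the lowest (-0.70, -0.42 and -0.42).

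Over the 20 sums of class and library with at least 10 cells, Fos, Jun and Egr1 had the most alike patterns among the 10 genes. Pearson's r of log2(CPM + 10) was 0.97 for Fos with Egr1, 0.97 for Fos with Jun, 0.84 for Fos with Junb and 0.85 for Fos with Nr4a1. Atf3 was less like them, at 0.57 with Fos, 0.47 with Jun and 0.39 with Junb. The value was 0.85 for Hspa1a with Hspa1b, 0.61 for Hspa1a with Junb, 0.55 with Jun, 0.48 with Fos, 0.34 for Hspa1a with Hspa8 and -0.03 for Hspa1a with Atf3. These sums share 3 libraries and differ in depth and cell number, so r is a description. Among 10169 genes with at least 200 UMIs, the pattern of Fos was most like that of Fosb (r = 0.95), another AP-1 subunit gene, followed by Wls, Tmem50b, Bcl9l and S100a11 (0.92, 0.92, 0.91 and 0.91). The summed pattern of Hspa1a and Hspa1b had Htra1, Zbtb20 and Akr1cl among the genes most like it (0.84, 0.84 and 0.79). Between cells of 1 class and library, thinned to 5000 UMIs, the median r was 0.50 for Fos with Jun, 0.53 for Fos with Junb and 0.50 for Fos with Egr1 over 8 sets of at least 50 cells, with ranges from -0.02 to 0.65, 0.15 to 0.66 and -0.12 to 0.67. For Hspa1a with Fos it was 0.20 over 6 sets (-0.09 to 0.35), and for Hspa1a with Hspa1b 0.26 over 4 sets (0.13 to 0.39). The embryonic sets for Hspa1a with Fos, with 6 and 1 cells holding Hspa1a, were too sparse to carry weight (-0.09 and -0.04). In the postnatal sets 36 to 225 cells held Hspa1a, and r with Fos was 0.15 to 0.35. These values are descriptions and were not tested.

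**Figure D5:**
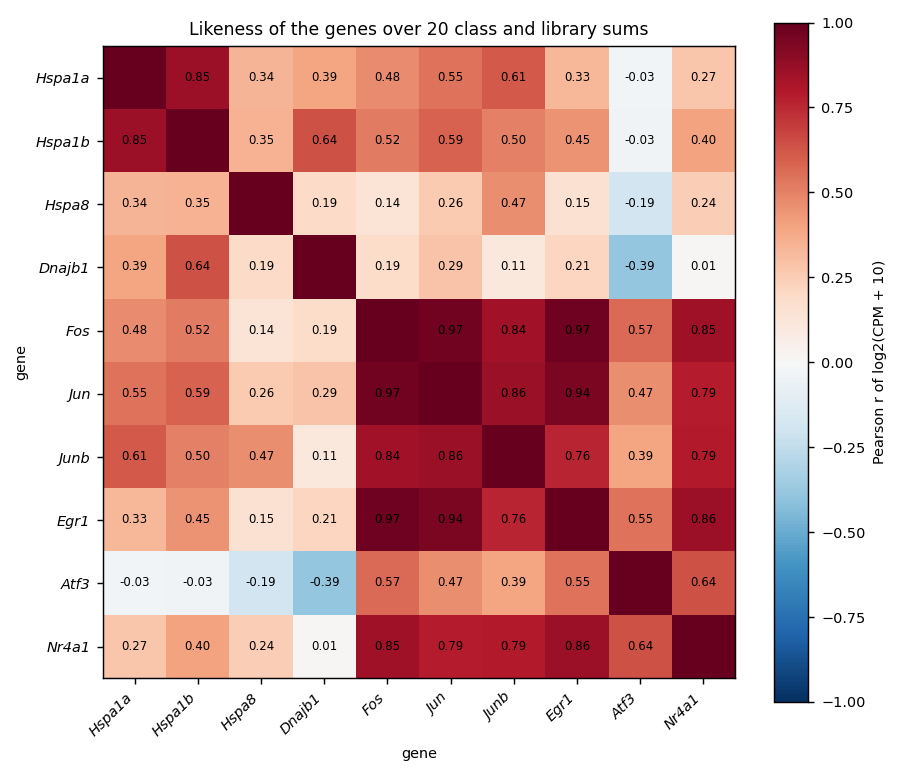
Pearson's r of log2(CPM + 10) between the 10 genes over 20 sums of class and library (both axes list the genes; colour and number give r). Fos, Jun and Egr1 form a block at 0.94 to 0.97, Hspa1a and Hspa1b stand at 0.85 with each other, and Atf3 is at -0.03 with both.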

How the data were processed

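Three-prime single-cell libraries (Chromium kit v2) of whole mouse ovary were analysed from the tables the authors deposited, which hold unscaled UMI counts for each gene in each cell. The submitters' processing notes name Cell Ranger 2.1.1 and GRCm38. The sources used here do not give any further filter on barcodes or the use of strand in counting. The 10 genes and all gene and marker lists were chosen with earlier results of these data known.

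Cells with fewer than 200 genes or over 20% mitochondrial UMIs were left out, and all 6 removed had few genes. Each cell was scored for 9 classes from 103 markers, 102 of them in the tables (mean over markers of the square root of UMIs per 10000, as a share of the marker's 99th percentile), and assigned if its highest score reached 0.15 and led the next by 0.05. These settings were made after looking at marker scores. This assigned 1494 cells and left 54 unassigned, with 60 of the assigned near the limit. Of the assigned cells 960 fell in a cluster named for the same class and 34 in one named for another. No doublet caller was run, and cells above the 95th percentile of UMIs were left out in an alternative. Clusters used 2000 variable genes without the 10 genes and lists, 30 principal components, 15 neighbours and a resolution of 1.0 (scanpy 1.11.5, leidenalg 0.10.2).

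Ratios needed 10 cells in both libraries and 10 UMIs together, with exact Poisson intervals for levels and exact conditional binomial intervals for ratios (scipy 1.17.1). Alternatives covered the classes, the scaling (edgeR 4.0.16 for TMM only), weighting of cells, pseudocount, fold and the cells left out. The scripts were tested on simulated data. The text names all 10 genes and, from the other lists, the 3 genes with the highest and the 3 with the lowest median over classes per comparison, and the 5 genes most alike to Fos and to the HSP70 pair, of which some for the pair are not reported here. Positions are from GENCODE M21, and promoters from RefSeq (GRCm38.p6). The promoter table used gave no window for Hspa8 and Egr1.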

Additional observations from a re-analysis of the deposited data

Results flagged for a closer look

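Atf3 was called in opposite directions in 2 classes against the embryo. At postnatal day 7 its log2 ratio of CPM + 10 was 1.42 in endothelium-like cells and -1.15 in granulosa-like cells, and at postnatal day 14 it was 1.21 and -1.87. The endothelium-like values rest on 6 embryonic UMIs, and without the 3 highest cells per library they were 0.88 and 0.74, no longer called, while the granulosa-like values were -1.33 and -1.88. Nr4a1 at postnatal day 14 was likewise called higher in surface epithelium-like cells (1.17) and lower in granulosa-like cells (-1.08). Without the 3 highest cells these were 0.61, no longer called, and -1.37. With 1 library per age the difference between classes was not tested.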

How the results depend on the processing

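No paired analysis was possible because each age is 1 library. The 25 calls of higher at postnatal day 7 against the embryo became 16 of 47 pairs without cells above the 95th percentile of UMIs, which left 5 classes with 10 cells. Clusters in place of gated classes gave 19 of 47, all among the 25, and leaving out the 3 highest cells gave 21, all among the 25. The 16 calls of higher at postnatal day 14 against the embryo ranged from 12, without the 3 highest cells, to 23, at 1.5-fold. Between the postnatal ages the 1 call of higher became 4 with clusters, 2 with a looser gate, 3 with totals without mitochondrial, ribosomal protein and haemoglobin genes, 3 with a mean over cells, 4 with a pseudocount of 1, 5 at 1.5-fold and 0 without the largest cells, and the 0 calls of lower became 1 with a pseudocount of 1, 3 at 1.5-fold and 1 without the 3 highest cells. The 2 calls of lower at postnatal day 7 against the embryo became 1 with TMM, 4 at 1.5-fold and 4 without the 3 highest cells. The 2 at postnatal day 14 against the embryo became 1 with clusters, 1 with the reduced totals, 1 with TMM, 4 with a mean over cells, 4 at 1.5-fold and 4 without the 3 highest cells. The cause of these shifts was not tested, apart from the lower fold itself. Fos and Jun in erythroid-like cells reversed without the 3 highest cells, to -0.071 and -0.23. TMM moved the median of all genes by up to 0.21 on the log2 scale in granulosa-like cells and by -0.21 in erythroid-like cells. Depth limits Hspa1a and Hspa1b in the embryo, where the 0 UMIs in endothelium-like cells have an upper 95% limit of 7.48 CPM.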
